A study of Mus musculus with 10 samples.

Results

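Testis RNA taken 5 h after an injection of trichostatin A was set against testis RNA taken 2.5 h after the same injection. The comparison uses 4 of the 10 arrays of the series, chosen by their titles: both arrays of the TSA 5 h pool and both arrays of the TSA 2.5 h pool. The animals were male BALB/c mice, 9 weeks old, and each received 60 µg of trichostatin A (TSA), dissolved in dimethylsulfoxide and PBS, in 1 subcutaneous injection. The mice were killed after 5 h in the later group and after 2.5 h in the earlier one, and RNA from the 3 mice was combined into 1 pool before labelling. Each pool was read on 2 CodeLink arrays, a 1-colour platform with Cy5, so each time point is 1 biological sample with duplicate arrays. The carrier control pool, killed at 10 h, does not enter the comparison, and the TSA 7.5 h and 10 h pools are cited only to place a value in time.

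TSA blocks the zinc-dependent histone deacetylases, enzymes that remove acetyl groups from histones and other proteins, and its use raises histone acetylation in many cell types. The testis holds germ cells at all stages of spermatogenesis within tubules of Sertoli and peritubular cells, with steroid-producing Leydig cells between the tubules. Histones of late spermatids are hyperacetylated before protamines replace them. Hepatocytes, by contrast, make most plasma proteins: apolipoproteins, carriers, clotting factors, complement and protease inhibitors.

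Of 10012 probes on each array, 9897 had a value, and every array held the same set of values in another order, with a median of 1.00. Duplicate arrays correlated at r = 0.9983 for the 5 h pool and r = 0.9975 for the 2.5 h pool across log2 intensities of the probes. Of the probes that entered the comparison, 8 were 2-fold apart between the duplicates at 5 h, and 11 at 2.5 h. Values under 0.0364 were raised to that floor, a log2 fold is the difference of the mean log2 intensities (5 h minus 2.5 h), and ± is its standard error from the duplicate arrays. That error covers labelling, hybridisation and reading of 1 pool, and not the spread between mice. With 1 pool a time no test of a difference between time points was possible. A probe was called higher or lower by size: at least 2-fold apart, with both 5 h arrays beyond both 2.5 h arrays.

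The 5 h testis pool differed from the 2.5 h pool mainly in genes of plasma proteins and of some metabolic enzymes of the liver. Nearly all large differences ran upward. Among 7422 probes that entered after the dimmest were left out, 75 were higher at 5 h (1.01%) and 5 were lower (0.0674%). Both directions together came to 80 probes (1.08%), while 97.5% of probes lay within 1.5-fold and the median log2 fold was -0.02. The 75 higher probes stood for 71 genes, with 4 probes without a symbol. Of the 71 genes, 52 were in the 10 lists of liver genes and 19 were not. The lists were chosen with earlier results of these data known, so this count and the medians that follow give no independent support. The liver lists held 220 measured genes, of which 147 entered the comparison. None of them was lower. With 0.0674% of all probes lower, none among so few genes is near that share, here and in each liver list below. Over all 220 measured members the median log2 fold was 0.30, against -0.02 for all 8738 measured genes. With values under the dim limit of 0.215 raised to it, that median was 0.0686.

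**Figure D1:**
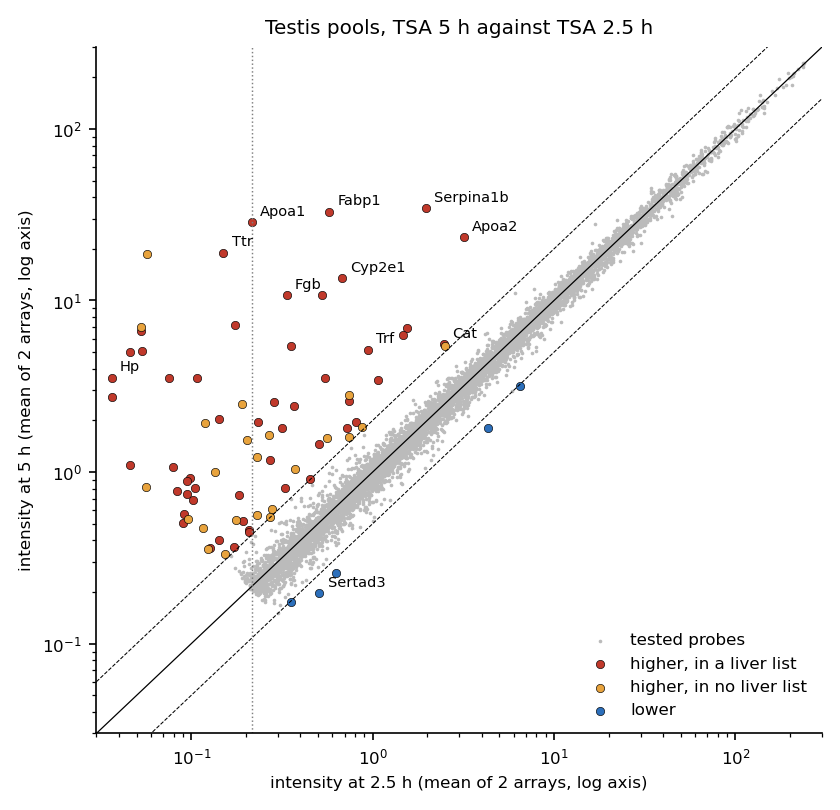
Mean intensity of each probe at 5 h (vertical) against 2.5 h (horizontal), both on log axes. Each point is 1 of 7422 probes. The solid line marks equal values, the dashed lines 2-fold and the dotted line the dim limit of 0.215. The 75 higher probes, 52 of them in liver lists (red), spread far above the upper dashed line, while 5 lower probes (blue) lie just under the lower one.

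Many of these genes were near background at 2.5 h. A mean intensity under the 25th percentile of the array values, 0.215, was called dim, and 39 of the 75 higher probes were dim at 2.5 h. These probes passed the filter on dim probes through their 5 h values and had to differ, so their folds are given as lower bounds against the dim limit. The other 36 had a signal above the limit at 2.5 h, and 25 of those were in the liver lists. Measured against the dim limit, 70 of the 75 were at least 2-fold higher, 39 at least 4-fold and 16 at least 16-fold, of which 49, 31 and 14 were in the liver lists. The 5 that came to under 2-fold this way were Cd1d1, Ephx2, Cyp1a2, Mapk13 and Cyp2c39. Apoa1, Ttr and 1 probe without a symbol were at least 64-fold higher by this measure.

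Of 16 measured apolipoproteins and lipid carriers, 15 entered and 8 were higher at 5 h, with none lower. Apoa1, the main protein of high-density lipoprotein, had intensities of 28.5 and 28.5 on the 5 h arrays, against 0.218 and 0.214 on the 2.5 h arrays, a log2 fold of 7.04 ± 0.01. The duplicates were close and the groups far apart, a 132-fold difference from a 2.5 h signal that lay at the dim limit. Apoa2, the other main protein of that particle, had 23.4 and 23.4 at 5 h, against 3.13 and 3.21 at 2.5 h (log2 fold 2.88 ± 0.02). Its 2.5 h signal was well above the dim limit, so its 7.38-fold difference was measured on both sides. Fabp1, the fatty acid binding protein of hepatocytes and enterocytes, had 33.8 and 32.1 at 5 h, against 0.628 and 0.529 at 2.5 h (log2 fold 5.84 ± 0.13).

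The C apolipoproteins regulate lipoprotein lipase and triglyceride clearance. Apoc3, an inhibitor of that lipase, read 6.68 and 6.60 at 5 h, against a dim 0.0495 and 0.0563 at 2.5 h, and was at least 30.8-fold higher. Apoc2, the activator of the same lipase, read 1.88 and 2.03 at 5 h, against 0.237 and 0.227 at 2.5 h, an 8.41-fold difference. Inhibitor and activator thus lay on the same side. Apoc4 was at least 4.31-fold higher at 5 h, and Apom, which carries sphingosine 1-phosphate, at least 3.74-fold. Lcat, the enzyme that esterifies cholesterol on high-density lipoprotein, was 2.43-fold higher, with 1.98 and 1.94 at 5 h, against 0.896 and 0.728 at 2.5 h. Apoh (log2 fold 0.86), Apoa5 (0.85) and Apoc1 (0.63) were past 1.5-fold but not 2-fold. Apoe, which many tissues make, had a log2 fold of 0.23, and Pltp, the phospholipid transfer protein, of -0.06. Summed over the 16 members, intensity was 128.1 to 132.8 on the 5 h arrays, against 29.4 to 29.5 on the 2.5 h arrays.

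The RNA of each pool comes from whole tissue, so more cells of a type and more RNA per cell cannot be told apart. Of 7 measured hepatocyte markers, 6 were higher at 5 h (Apoa1, Apoa2, Apoc3, Ttr, Serpina1b and Fabp1) and Hnf4a was not. Their summed intensity was 145 to 146 on the 5 h arrays, against 6.48 to 6.58 on the 2.5 h arrays. The 6 markers are themselves members of the liver lists, so their values are not independent of the counts above. Ttr and Apoc3 were dim at 2.5 h and Alb and Cps1 were not analysed here. The part of liver RNA in the difference was not tested.

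Among protease inhibitors of plasma, 21 were measured, 14 entered, 9 were higher at 5 h and none lower. Serpina1b, a gene of alpha-1 antitrypsin, the inhibitor of neutrophil elastase, read 34.4 and 34.4 at 5 h, against 1.90 and 2.04 at 2.5 h (log2 fold 4.13 ± 0.05). Serpina1d read 7.62 and 6.82 at 5 h, against 0.212 and 0.144 at 2.5 h, and was at least 33.5-fold higher. Serpina1e read 5.28 and 5.59 at 5 h, against 0.350 and 0.362 at 2.5 h, a 15.2-fold difference. These 3 are the copies that were called, and the call itself requires that the arrays of the pools do not overlap. Serpina1c, another measured copy, was left out as dim. It read 0.465 and 0.416 at 5 h, against 0.031 and 0.0485 at 2.5 h. The Serpina1 genes are close copies of one another, and how far their probes share signal is unknown. Their values are therefore not independent of one another.

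Mug1, murinoglobulin, a broad protease inhibitor of mouse plasma, read 5.05 and 5.00 at 5 h, against a dim 0.0448 and 0.0472 at 2.5 h, at least 23.3-fold higher. Its relative Mug2 was at least 2.03-fold higher and Pzp, the alpha-2-macroglobulin of mice, at least 2.63-fold. Kng1, kininogen, the source of bradykinin, read 2.75 on both arrays at 5 h, against 0.0361 and 0.0261 at 2.5 h, both under the floor, and was at least 12.8-fold higher. Serpinc1, antithrombin, read 3.97 and 3.16 at 5 h, against 0.117 and 0.0980 at 2.5 h, at least 16.5-fold higher. Ambp, which encodes alpha-1-microglobulin and bikunin, was 3.53-fold higher. Of the members that were not called, Cst3, cystatin C, had a log2 fold of -0.08, Serping1, the C1 inhibitor, of 0.07, and Serpina3n of 0.52.

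Among carriers in plasma for hormones, vitamins, metals and haem, 17 were measured, 12 entered, 10 were higher at 5 h and none lower. Of the 10, 5 were dim at 2.5 h and passed the filter on dim probes through their 5 h values. Ttr, transthyretin, a carrier of thyroid hormone and, with Rbp4, of retinol, read 18.4 and 19.6 at 5 h, against a dim 0.118 and 0.192 at 2.5 h, at least 88.2-fold higher. Rbp4 itself, whose RNA was above the dim limit in both pools, read 7.09 and 6.75 at 5 h, against 1.61 and 1.47 at 2.5 h (log2 fold 2.17 ± 0.08). Both partners of the retinol carrier were therefore higher at 5 h. Hp, haptoglobin, which binds free haemoglobin, was at least 16.5-fold higher, and Hpx, hemopexin, which binds haem, was 6.50-fold higher with 3.55 and 3.55 at 5 h, against 0.542 and 0.552 at 2.5 h. Trf, transferrin, the iron carrier, read 5.25 and 5.10 at 5 h, against 0.927 and 0.960 at 2.5 h (log2 fold 2.46 ± 0.03). Hamp, hepcidin, the hormone that limits iron export, read 2.43 and 2.45 at 5 h, against 0.372 and 0.367 at 2.5 h, a 6.60-fold difference. Neither Trf nor Hamp was dim at 2.5 h. Ahsg, fetuin A, an inhibitor of mineral deposition, was 20.5-fold higher, with 10.9 and 10.7 at 5 h, against 0.543 and 0.512 at 2.5 h. Its relative Fetub was at least 3.43-fold higher, Orm1, an acid glycoprotein of the acute phase, at least 9.43-fold, and Azgp1, zinc-alpha-2-glycoprotein, at least 4.11-fold. Selenop, selenoprotein P, had a log2 fold of 0.04, and Igfals, the acid-labile subunit that binds insulin-like growth factors, was at least 1.44-fold higher. Afp, the albumin of the fetal liver, was dim in both pools.

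The clotting genes included all 3 chains of fibrinogen, the precursor of the clot. Of 17 measured genes 12 entered, 6 were higher at 5 h and none was lower. Fgb read 10.0 and 11.5 at 5 h, against 0.339 and 0.333 at 2.5 h (log2 fold 5.00 ± 0.10). Fga read 4.99 and 5.20 at 5 h, against 0.0778 and 0.0191 at 2.5 h, at least 23.7-fold higher, and Fgg read 1.13 and 0.999 at 5 h, against 0.0735 and 0.0866 at 2.5 h, at least 4.94-fold higher. Vtn, vitronectin, was 8.97-fold higher, and Hrg, histidine-rich glycoprotein, 5.71-fold. F10, clotting factor X, was just past the limit with a log2 fold of 1.01 ± 0.09. F9, F5, Proc and Pros1, factors and anticoagulants of the same cascade, had log2 folds of 0.17 to 0.23, and F12 of 0.55.

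Promoter windows of 6 of these genes are printed here because each holds the letters GTTAAT, read on either strand, which form a core of the binding site of HNF1, a transcription factor of liver, kidney and gut. The sequences are those of RefSeq for build GRCm38.p6 and run 5′ to 3′ along the gene over the 250 bases before its annotated start. Capitals mark GTTAAT, spelled ATTAAC where it lies on the opposite strand, and in Fabp1 also TATAAA.
Fabp1, chr6:71199629-71199878, plus strand: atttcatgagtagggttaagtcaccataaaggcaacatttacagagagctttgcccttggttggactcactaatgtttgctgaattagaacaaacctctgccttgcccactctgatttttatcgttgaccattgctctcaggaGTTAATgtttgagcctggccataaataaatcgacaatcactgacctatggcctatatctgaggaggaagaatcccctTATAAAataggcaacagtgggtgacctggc
Fga, chr3:83025903-83026152, plus strand: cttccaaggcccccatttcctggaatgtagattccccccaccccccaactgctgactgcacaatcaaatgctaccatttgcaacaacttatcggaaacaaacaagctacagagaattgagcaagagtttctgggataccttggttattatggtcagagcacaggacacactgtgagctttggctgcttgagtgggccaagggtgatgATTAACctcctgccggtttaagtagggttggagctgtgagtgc
Fgb, chr3:83049864-83050113, minus strand: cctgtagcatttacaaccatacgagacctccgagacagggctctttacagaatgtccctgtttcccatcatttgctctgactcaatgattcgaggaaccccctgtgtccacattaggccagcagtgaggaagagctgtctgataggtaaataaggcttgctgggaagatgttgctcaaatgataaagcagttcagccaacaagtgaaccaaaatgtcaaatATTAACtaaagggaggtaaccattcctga
Serpina1b, chr12:103738190-103738439, minus strand: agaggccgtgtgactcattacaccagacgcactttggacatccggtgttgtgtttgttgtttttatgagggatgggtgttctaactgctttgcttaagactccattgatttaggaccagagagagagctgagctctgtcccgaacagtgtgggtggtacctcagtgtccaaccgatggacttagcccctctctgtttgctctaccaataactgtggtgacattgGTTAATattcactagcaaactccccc
Serpina1d, chr12:103773634-103773883, minus strand: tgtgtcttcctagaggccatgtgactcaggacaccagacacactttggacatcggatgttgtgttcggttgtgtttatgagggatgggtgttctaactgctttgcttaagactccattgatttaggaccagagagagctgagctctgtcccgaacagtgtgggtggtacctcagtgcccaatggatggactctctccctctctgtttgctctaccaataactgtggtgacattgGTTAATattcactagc
Serpina1e, chr12:103956898-103957147, minus strand: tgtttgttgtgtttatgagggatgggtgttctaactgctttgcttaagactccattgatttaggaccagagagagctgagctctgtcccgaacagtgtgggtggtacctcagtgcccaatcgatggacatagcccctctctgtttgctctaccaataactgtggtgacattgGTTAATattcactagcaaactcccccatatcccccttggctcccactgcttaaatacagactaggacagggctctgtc
The first base of the marked letters lay 16 to 107 bases before the start in these 6 windows. As printed, the 3 Serpina1 windows share an unbroken run of 55 bases that includes the marked letters. Windows of 300 bases (250 before to 50 after the start) were at hand for 56 of the 71 higher genes. GTTAAT stood on either strand in 17 of them (30.4%), against 4.48% of 5317 windows of genes that entered the comparison and 7.20% of 27025 windows in all. CAAAGT, letters found in many sites of the liver factor HNF4, stood in 26.8% of the higher genes' windows, against 11.9% of windows of genes that entered. TATAAA, the TATA box, stood in 25% of the higher genes' windows, against 8.35%. CCAAT stood in 37.5%, against 38.4%, and CACGTG in none of the 56, against 10.9%. Windows of close copies are counted separately, and a match says only that the letters are present. Apoa1 held none of the 5 motifs in its window.

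Complement and acute phase genes were mostly dim. Of 21 measured 8 entered, 3 were higher at 5 h and none was lower. Cfb, factor B of the alternative pathway, was at least 2.35-fold higher. C4b, of the classical pathway, read 0.777 and 0.847 at 5 h, against 0.329 and 0.326 at 2.5 h, a 2.48-fold difference. Saa1, serum amyloid A, was at least 2.40-fold higher at 5 h. C1qa and C1qb, which macrophages make, had log2 folds of -0.36 and -0.06. Masp1, a protease of the lectin pathway, was read by a pair of probes that disagreed: the one that entered gave a log2 fold of -0.14, and another, left out as dim, read 0.264 and 0.291 at 5 h, against 0.0395 and 0.0679 at 2.5 h.

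The enzymes of liver metabolism were tallied apart from its secreted proteins. Of 23 measured amino acid and urea cycle enzymes, 3 of the 14 that entered were higher at 5 h. Tdo2 and Haao, enzymes of tryptophan breakdown toward NAD, were at least 5.07-fold and at least 3.48-fold higher. Gnmt, the methyltransferase that consumes surplus S-adenosylmethionine, read 3.37 and 3.48 at 5 h, against 1.08 and 1.08 at 2.5 h (log2 fold 1.67 ± 0.02). Arg1, arginase of the urea cycle, was dim at 2.5 h and at least 1.59-fold higher. Ass1, argininosuccinate synthase, which many tissues use, had a log2 fold of -0.05, and Ahcy, another such enzyme, was dim at 5 h.

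Among 51 measured genes of xenobiotic metabolism, 33 entered and 7 were higher at 5 h. Cyp2e1, the ethanol-oxidising cytochrome P450, read 13.4 and 13.5 at 5 h, against 0.762 and 0.602 at 2.5 h (log2 fold 4.31 ± 0.17). Cyp2f2 read 6.22 and 6.37 at 5 h, against 1.58 and 1.37 at 2.5 h (log2 fold 2.10 ± 0.10). Cyp2c29 was 4.33-fold higher and Cyp2c40 at least 3.61-fold. The glutathione transferases, which the testis also uses, had no member past 1.5-fold: Gstm1 had a log2 fold of -0.20, Gsta3 of -0.30, Gstt2 of -0.45 and Gstp1 of 0.41. Summed intensity of this list did not separate the pools, with 358 to 359 at 5 h, against 343 to 368 at 2.5 h.

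In bile acid and sterol handling, 3 of 17 measured genes were higher at 5 h, and 7 entered. Abcb11, the bile salt export pump, read 1.83 and 1.81 at 5 h, against 0.713 and 0.727 at 2.5 h, a 2.52-fold difference. Slc27a5, which couples bile acids to coenzyme A, was 2.91-fold higher, and Hsd3b5, a steroid dehydrogenase of male mouse liver, at least 3.19-fold. Of 26 measured genes of fatty acid oxidation and peroxisomes, 24 entered and 2 were higher: Cat, catalase, with 5.50 and 5.65 at 5 h, against 2.51 and 2.42 at 2.5 h (log2 fold 1.18 ± 0.03), and Uox, urate oxidase, at least 2.09-fold. The mitochondrial enzymes Acadm, Acadl, Hadh and Cpt2 had log2 folds of -0.22 to 0.07. Pck1, the rate-limiting enzyme of gluconeogenesis, was the sole higher gene among 11 measured genes of glucose metabolism, with 3.60 and 3.45 at 5 h, against 0.0701 and 0.0817 at 2.5 h, at least 16.4-fold. Fbp1 and G6pc, which act after it on the same route, had log2 folds of -0.15 and -0.02.

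The filter also left out probes that were dim at 2.5 h and only moderate at 5 h. Of 2475 probes left out, 33 were above the dim limit on both 5 h arrays, dim on both 2.5 h arrays and 2-fold apart, while 3 met the same rule the other way (Abcb8, Ogn and Psrc1). Against the dim limit 11 of the 33 and none of the 3 were 2-fold apart. The liver lists held 17 of the 33. Slco1b2, the hepatocyte importer of organic anions, read 0.935 and 0.942 at 5 h, against 0.0142 and 0.0134 at 2.5 h. Mat1a, the liver form of methionine adenosyltransferase, read 0.592 and 0.571 at 5 h, against 0.0530 and 0.0572 at 2.5 h. Otc, ornithine transcarbamylase of the urea cycle, read 0.356 and 0.355 at 5 h, against 0.00860 and 0.0162 at 2.5 h. Apcs, serum amyloid P, and Mbl1, a mannose-binding lectin, were also among the 33.

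Outside the liver lists 19 named genes were higher at 5 h, and several of them are known as liver genes that the lists did not hold. Inmt, an indole methyltransferase, read 1.92 and 1.96 at 5 h, against 0.152 and 0.0933 at 2.5 h, at least 9.01-fold higher. H2-Q10, a secreted class I molecule of mouse liver, read 2.46 and 2.55 at 5 h, against 0.152 and 0.241 at 2.5 h, at least 11-fold higher. Rgn, regucalcin, was at least 4.66-fold higher, Akr1c20, an aldo-keto reductase, at least 7.11-fold, and Car3, a carbonic anhydrase of liver, muscle and fat, at least 3.81-fold. Slc27a2, an acyl-CoA synthetase for very long fatty acids, was 6.13-fold higher. Pcbd1, a cofactor that stabilises HNF1 dimers and also acts in phenylalanine breakdown, read 1.16 and 1.28 at 5 h, against 0.230 and 0.230 at 2.5 h, a 5.30-fold difference. Nudt7, a peroxisomal coenzyme A hydrolase, was 3.84-fold higher, Asgr1, the asialoglycoprotein receptor of hepatocytes, 2.81-fold, and Rnase4, a secreted ribonuclease, 2.15-fold. The remaining 9 were Krt18, Lect2, Cd1d1, Csn1s2a, Ifi47, Mapk13, Rida, Spp2 and Setmar. Of these Krt18, Lect2, Cd1d1 and Mapk13 were dim at 2.5 h, with bounds of at least 2.20-fold, 2.43-fold, 1.66-fold and 1.54-fold, and the other 5 were 2.00-fold to 2.81-fold higher. A pair of probes without a symbol, both dim at 2.5 h, were at least 86.3-fold and 32.6-fold higher. Just outside the 2-fold limit lay Sgk2, Cpn1 and Pycard, with log2 folds of 0.98, 0.97 and 0.92, and Sgk2 was dim at 2.5 h and at least 1.45-fold higher.

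Most of the higher probes read highest in the 5 h pool among the TSA pools. Of the 75 higher probes, 74 read lower on both 7.5 h arrays than on both 5 h arrays, and 72 read lower on all 4 arrays of 7.5 h and 10 h. This share is not independent of the call, since all 3 gaps use the same 5 h arrays. The same count was not taken over all probes, so there is no share to set beside it. Apoa2 read 3.13 and 3.21 at 2.5 h, 23.4 and 23.4 at 5 h, 2.39 and 2.41 at 7.5 h, and 2.74 and 2.69 at 10 h. Serpina1b read 1.90 and 2.04 at 2.5 h, 34.4 and 34.4 at 5 h, 2.07 and 2.01 at 7.5 h, and 2.33 and 2.22 at 10 h. Both had 7.5 h and 10 h readings near those of 2.5 h. The summed intensity of the 7 hepatocyte markers was 6.48 to 6.58 at 2.5 h, 145 to 146 at 5 h, 5.19 to 5.50 at 7.5 h, and 5.97 to 6.05 at 10 h. Setmar, Ifi47 and Mapk13 were the 3 exceptions. Setmar read 0.281 and 0.266 at 2.5 h, 0.538 and 0.558 at 5 h, 0.330 and 0.367 at 7.5 h, and 0.657 and 0.566 at 10 h. It was thus highest in the 10 h pool. Ifi47, an interferon-induced GTPase, read 0.277 and 0.283 at 2.5 h, 0.566 and 0.660 at 5 h, 0.376 and 0.393 at 7.5 h, and 0.530 and 0.591 at 10 h.

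**Figure D2:**
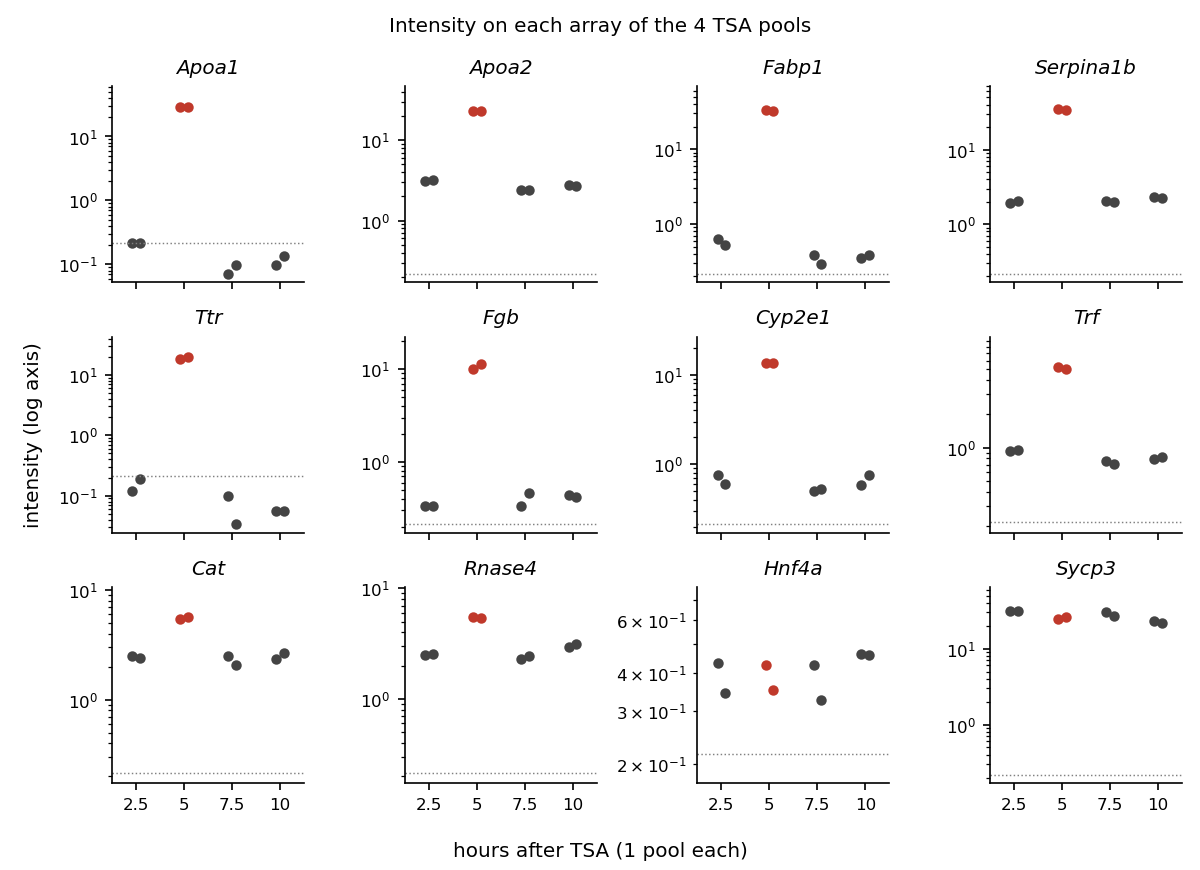
Intensity (log axis, scale set for each gene) on both arrays of the 4 TSA pools at 2.5, 5, 7.5 and 10 h for 12 genes, with the 5 h arrays in red and the dim limit of 0.215 dotted. The first 10 genes stand apart at 5 h alone, Apoa1 at 28.5 on both arrays, while Hnf4a and Sycp3, in the last 2 panels, do not.

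Some of the higher genes were neighbours. Placed on the RefSeq gene order of GRCm38.p6, 23 of the 71 higher genes fell into 9 neighbourhoods in which no more than 5 protein-coding genes lay between one higher gene and the next. They included the fibrinogen genes on chromosome 3, the Serpina1 genes on chromosome 12, Apoa1 with Apoc3 on chromosome 9, Apoc2 with Apoc4 on chromosome 7, and Ahsg, Fetub, Hrg and Kng1 on chromosome 16. Several neighbourhoods hold copies of 1 ancestral gene. How many of all genes that entered fall into such neighbourhoods was not counted, so the 23 have no share beside them. C4b and Cfb on chromosome 17 are separated by unrelated genes, and those did not move with them: Stk19 had a log2 fold of -0.26, Dxo of 0.01, Skiv2l of 0.03 and Nelfe of 0.11. Cyp2c38, on chromosome 19 among Cyp2c29, Cyp2c39 and Cyp2c40, had a log2 fold of 0.34 ± 0.26. The 71 genes lay on 20 chromosomes.

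Transcription factors of hepatocytes were read beside these genes. Of 19 measured factors 12 entered, and none was past 1.5-fold in either direction. Over all probes 1.55% were higher and 0.903% lower at that limit, so none among 12 is near those shares. How these factors bear on the higher genes was not tested. Hnf4a, a nuclear receptor of liver, kidney and gut, read 0.423 and 0.350 at 5 h, against 0.431 and 0.342 at 2.5 h, a log2 fold of 0.00. Cebpa read 0.650 and 0.688 at 5 h, against 0.625 and 0.675 at 2.5 h (log2 fold 0.04). Foxa3 had a log2 fold of 0.26 and Cebpd, the highest of the 12, of 0.31. Foxa2 and the bile acid receptor gene Nr1h4 were dim in both pools.

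Markers of other tissues were set beside those of the liver. None of the 14 measured kidney genes, 12 pancreas genes, 12 skeletal muscle genes, 6 blood genes or 6 epididymis genes that entered met the 2-fold limit, and many were left out as dim (12 of the 14 kidney genes). Over all probes 1.08% met it, so none among so few is near that share. Hba-a1, alpha globin, had a log2 fold of -0.05, and Gpx5, of the epididymis, of -0.04. Among 15 genes of intestine and stomach, Fabp2, the intestinal fatty acid binding protein, was left out as dim but read 0.501 and 0.518 at 5 h, against 0.0392 and 0.0348 at 2.5 h. Of 10 adipose genes, Fabp4 was the sole one past 1.5-fold, with a log2 fold of 0.71. Among 11 macrophage and Kupffer cell genes none that entered met the limit, and Cd5l was dim in both pools. Of 16 lymphocyte and neutrophil genes 3 entered, none past 1.5-fold.

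**Figure D3:**
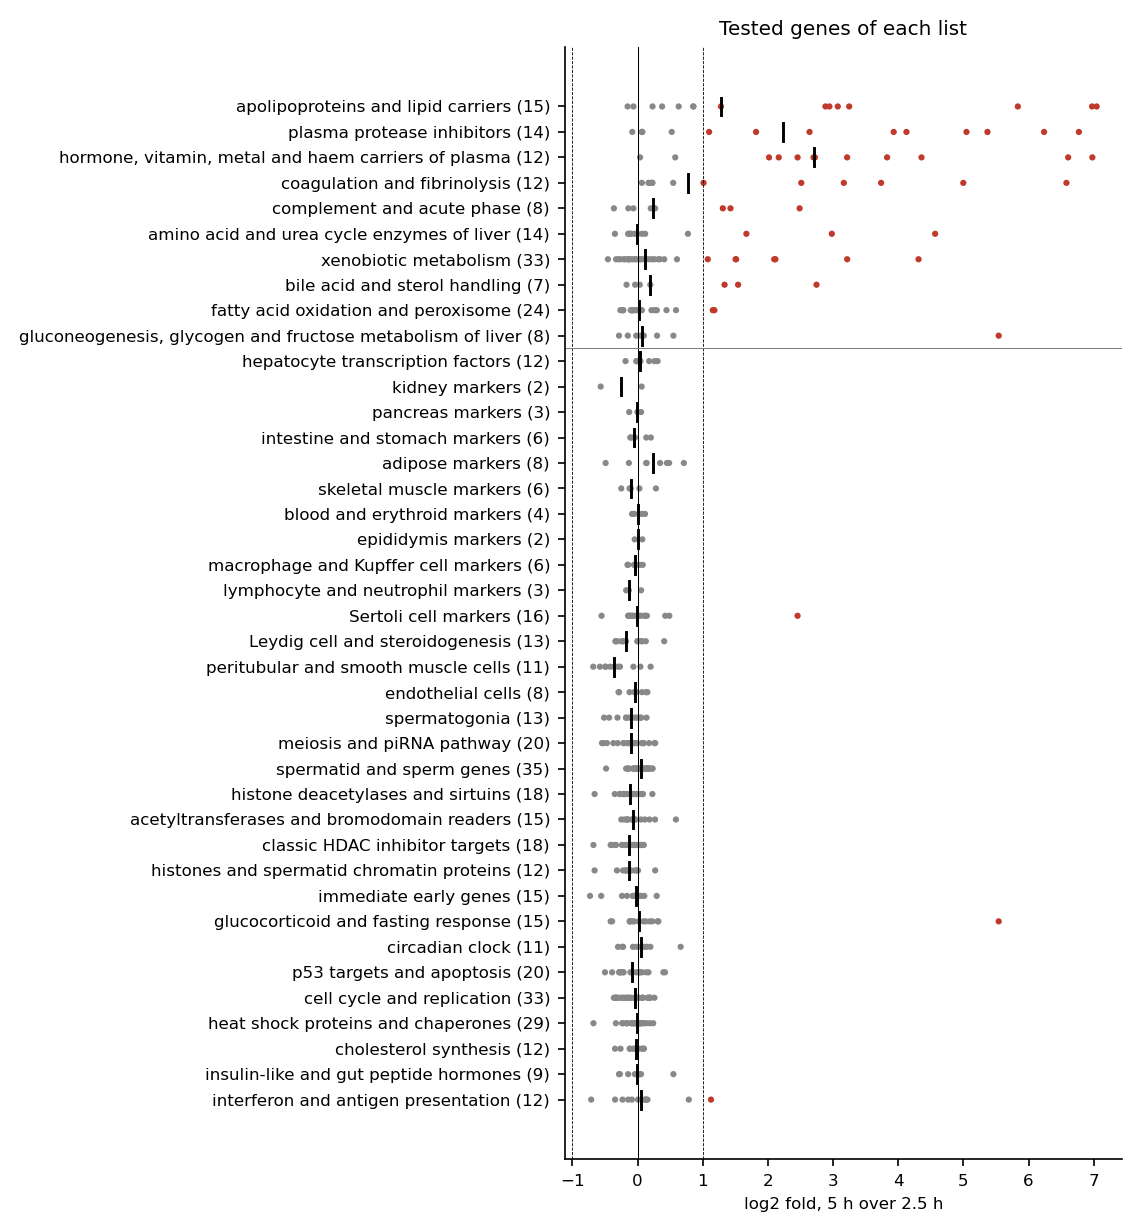
Log2 fold (5 h over 2.5 h) of each gene that entered, for 40 gene lists, with the number of genes in brackets. Red points were higher by the 2-fold rule, black bars are medians over the genes that entered, and dashed lines mark 2-fold. Red points crowd the 10 liver lists above the grey line. Below it the 3 lists with a red point hold 1 each.

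Genes that define the testis differed little between the pools. Of 16 measured testis markers 15 entered, and none met the 1.5-fold rule. Over all probes 1.55% were higher and 0.903% lower by that rule. The median log2 fold of the 15 was -0.18, and 13 of them were below 0, as were 3609 of all 6573 genes that entered. Their summed intensity was 498 to 510 at 5 h, against 534 to 573 at 2.5 h. Tnp1, transition protein 1 of spermatids, read 175 and 186 at 5 h, against 223 and 186 at 2.5 h. Sycp3, of the synaptonemal complex in meiosis, read 24.8 and 26.0 at 5 h, against 31.3 and 31.5 at 2.5 h (log2 fold -0.30). Odf1, of the sperm tail, read 77.3 and 81.2 at 5 h, against 75.1 and 78.8 at 2.5 h (log2 fold 0.04). Spermatid and sperm genes, 35 measured, had log2 folds of -0.48 to 0.23 with a median of 0.05. Meiosis and piRNA genes, 21 measured, had a median of -0.13, and spermatogonial genes, 14 measured, of -0.07. The median of all genes was -0.02.

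Somatic cells of the testis showed small differences as well. Of 19 measured Sertoli genes, Trf alone was called, and transferrin is also a liver gene. Wt1, a transcription factor of Sertoli cells, read 3.59 and 3.45 at 5 h, against 2.57 and 2.67 at 2.5 h (log2 fold 0.42). Amh, anti-Müllerian hormone, read 0.226 and 0.196 at 5 h, against 0.455 and 0.210 at 2.5 h, and its 2.5 h duplicates lay further apart than the pools' means. Steroidogenic genes of Leydig cells had a median log2 fold of -0.18 over 13 measured: Star, the cholesterol importer of mitochondria, had -0.25, Cyp11a1 -0.22, Cyp17a1 -0.18 and Hsd3b1 -0.33. Peritubular and smooth muscle genes had the lowest median of any list, -0.36 over 11 measured, and 9 of the 11 were below 0. Of all 6573 genes that entered, 3609 were below 0. Acta2, smooth muscle actin, read 6.61 and 6.99 at 5 h, against 9.35 and 9.75 at 2.5 h (log2 fold -0.49). Tpm1, tropomyosin, was the sole member past 1.5-fold, with a log2 fold of -0.68, but it was dim at 5 h and at least 1.33-fold lower against the dim limit. Actg2 went the other way, with 44.5 and 43.0 at 5 h, against 39.9 and 36.4 at 2.5 h.

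Histone deacetylases, the enzymes that TSA inhibits, differed little in RNA between the times. Hdac1 had a log2 fold of -0.04, Hdac2 of 0.08, Hdac3 of -0.21, Hdac5 of -0.01 and Hdac6 of 0.23. Sap30, a subunit of the Sin3 deacetylase complex, was the sole one of 22 measured genes of that group past 1.5-fold, with 5.12 and 4.99 at 5 h, against 8.03 and 7.92 at 2.5 h (log2 fold -0.66). Of genes often raised by deacetylase inhibitors in cultured cells, 22 were measured and 18 entered. None of the 18 met the 1.5-fold rule upward. Over all probes 1.55% did, so none among so few is near that share. Cdkn1a, the p21 cell cycle inhibitor, read 2.68 and 2.63 at 5 h, against 3.34 and 3.62 at 2.5 h (log2 fold -0.39). Hspa1b, an inducible heat shock protein, read 1.523 and 1.497 at 5 h, against 2.44 and 2.39 at 2.5 h (log2 fold -0.68), and its neighbour copy Hspa1a had -0.33. How far the probes of these copies share signal is unknown. Jun, an immediate early gene, read 0.864 and 0.869 at 5 h, against 1.54 and 1.34 at 2.5 h (log2 fold -0.73). H2ax, a histone variant of DNA damage and the meiotic sex body, had a log2 fold of -0.66. Ncoa1, a coactivator, had 0.59, Dbp, a clock output gene, 0.66, and Irf1, an interferon response factor, 0.79. H2-Aa, in the same list of interferon and antigen presentation genes as Irf1, had -0.71. Of the 12 genes of that list that entered, 7 were above 0 and 5 below. Cell cycle genes, 37 measured, and p53 targets, 25 measured, had no member past 1.5-fold among those that entered. This too is near the share over all probes.

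The lower side was short and shallow. The 5 lower probes were Sertad3, Dok4, 1700029M20Rik, Nipal1 and 1 probe without a symbol. Sertad3, a transcriptional coregulator, read 0.195 and 0.199 at 5 h, against 0.486 and 0.530 at 2.5 h (log2 fold -1.37 ± 0.06). It was dim at 5 h and at least 2.36-fold lower against the dim limit. Dok4, a docking protein of tyrosine kinase signalling, read 0.252 and 0.262 at 5 h, against 0.643 and 0.610 at 2.5 h (log2 fold -1.29 ± 0.05). In both the duplicates were close and the groups apart. For 1700029M20Rik 1 array decided the call: it read 2.74 and 1.18 at 5 h, against 4.60 and 4.09 at 2.5 h, and its log2 fold of -1.27 ± 0.61 became -0.66 without the second 5 h array. Nipal1, also dim at 5 h, had -1.02 ± 0.14, and -0.898 without that array, and was at least 1.65-fold lower against the dim limit, under the 2-fold rule. The unnamed probe read 3.20 and 3.17 at 5 h, against 6.42 and 6.59 at 2.5 h. Just outside the limit lay Klhl28 (-0.99, dim at 5 h), Gpx3 (-0.99) and Fbn2 (-0.96). Gpx3, the secreted glutathione peroxidase, read 2.89 and 3.04 at 5 h, against 5.86 and 5.93 at 2.5 h.

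At the lower limit of 1.5-fold, 115 probes were higher (1.55%) and 67 were lower (0.903%). The liver lists held 58 of the 115 and none of the 67. With 0.903% of all probes lower, none among so few liver genes is close to that share. The 6 members added to the liver lists' count were Apoh, Apoa5, Arg1, Apoc1, Cyp2d26 and Scp2. Collagen chains stood out among the 67 when the values were read, and a list of them was then written, so it gives no support. Of 28 measured collagen genes 24 entered and 5 were lower at 1.5-fold. Col1a1, of fibrillar collagen I, read 0.289 and 0.292 at 5 h, against 0.520 and 0.548 at 2.5 h (log2 fold -0.88), and its partner Col1a2 had -0.61. Col6a1 and Col6a3, of the microfibrils of collagen VI, had -0.78 and -0.75, and Col5a2 had -0.67. The basement membrane chains Col4a1 and Col4a2 had -0.12 and -0.20. The median of the 28 chains was -0.12.

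**Figure D4:**
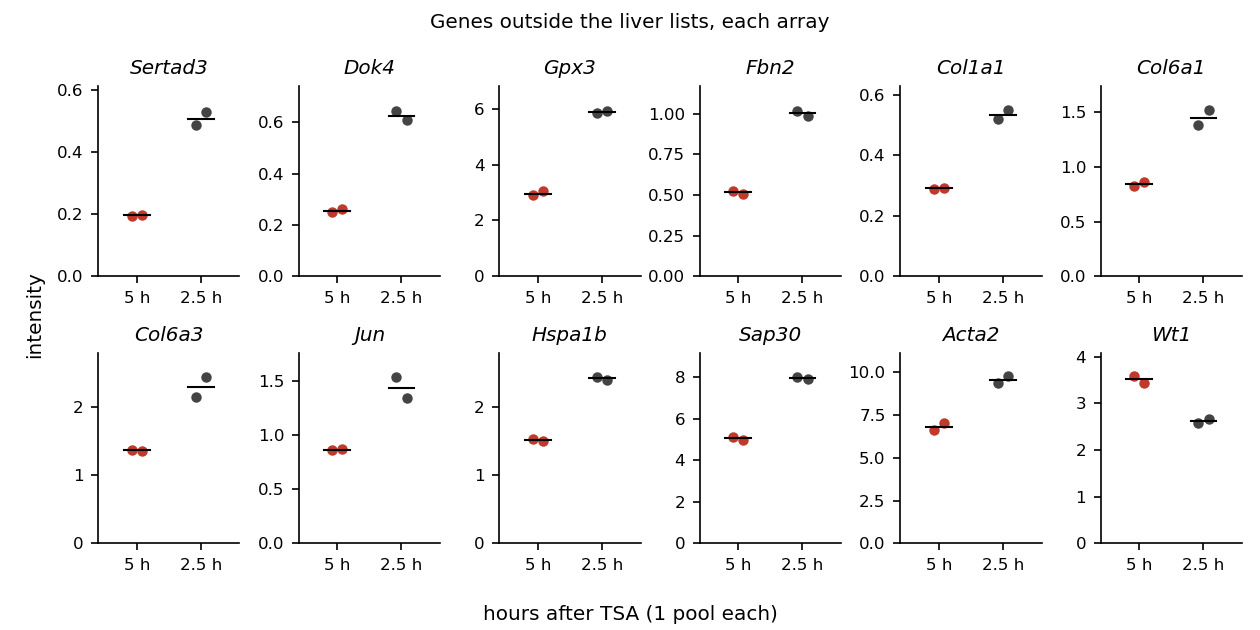
Intensity (linear axis from 0) on both arrays of each pool, 5 h in red on the left and 2.5 h in grey on the right, for 12 genes outside the liver lists, with a bar at the geometric mean. Sertad3, at 0.195 and 0.199 on the 5 h arrays, and 10 other genes are lower at 5 h, and Wt1, at 3.59 and 3.45, is higher, each by less than 3-fold.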

How the data were processed

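The intensity values were used as the authors deposited them: 1 normalised linear value per probe and array, with no scanner files used here. Sorted values were identical on all 10 arrays, so the deposited intensity table is quantile normalised; the sources used here do not name the program. A true difference of all genes at once would not be visible after such a step. RNA of 3 mice was pooled, per the labels' protocols, so the number of pools, not of arrays, limits precision.

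Values were floored at the 5th percentile (0.0364), logged (log2) and averaged over the 2 arrays of a pool. Probes with a mean intensity under 0.210 over the 4 arrays (the dimmest 25%) were left out. Of the 10012 probes of the table, 8983 had 1 symbol, 1 had several and 1028 none. Symbols were updated through gene IDs against RefSeq genes of GRCm38.p6, which matched 8975 probes by gene ID. Genes were named by a rule: up to 40 highest and 15 lowest called probes, the 3 next outside the limit on each side, up to 4 members of each list and a fixed set of markers; other names were chosen after their values were seen. The members and lists were chosen with earlier results of these data known. Python 3.11.15, pandas 2.3.3 and numpy 2.4.6 were used. Alternatives were the floor, an added offset, the filter, the centring, the fold limit and leaving out each array.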

Additional observations from a re-analysis of the deposited data

How the results depend on the processing

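No paired analysis was possible because the results come from no test and the array numbers mark technical duplicates of 1 pool. The count of higher probes, 75, was 49 with an offset of 0.5 in place of the floor, 138 without a filter on dim probes, 24 with the dimmest 50% left out, 48 with the filter taken over all 10 arrays, 115 at 1.5-fold, 23 without the liver lists and, chosen after seeing the data, 36 without probes dim at 2.5 h. Leaving out each array gave 75 to 78. The count of lower probes, 5, was 1 with the offset, 39 with no filter, 2 with the dimmest 50% left out, 9 when centred on probes of like ID number, 67 at 1.5-fold and 0 at 3-fold, and 7 without each array, of which 3 to 5 were shared with the 5. The count of liver list probes, 52, added after seeing the data with all its alternatives, was 79 with no filter, 19 with the dimmest 50% left out, 32 with the filter over 10 arrays and 25 without probes dim at 2.5 h, and 49 to 52 without each array. The liver lists' median log2 fold of 0.30 was 0.35 with no floor, 0.0686 with the floor at the 25th percentile, 0.13 with the offset, 0.17 with the dimmest 50% left out, 0.13 with the filter over 10 arrays, 0.37 when centred on probes outside the liver lists, and 0.23 with the dimmest 25% left out, chosen after seeing the data. It was 0.31 to 0.39 without each array. Fewer probes enter under the stricter filters, and the offset compresses low values by construction; for the other settings the cause was not tested. Of 54 named genes that met the 2-fold rule, all 54 kept their direction in 9 settings, and 12 came under 2-fold with the offset. Folds of 45 of the 54 moved by over 1.5 times with the offset, and of 21 with the floor at the 25th percentile. With 1 pool a time, differences between mice are not separated from differences between times, and probes dim in both pools carry no information here.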
